A study of Mus musculus with 12 samples.

Results

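The genes described here carry glucose into the cell and lactate out of it, break glucose down to pyruvate and lactate, divert glucose phosphate into the pentose phosphate pathway, or store and release glycogen. They were a fixed list of 38 symbols, looked up by name among the 23309 genes of the expression table. Of these, 37 were found. The symbol Pkm2 is absent, and the pyruvate kinase gene is listed once, as Pkm. A filter on low values, 1 FPKM or more in 2 or more of the 12 libraries, kept 11516 genes, and 36 of the 37 members passed it. The exception was Ldhb, the lactate dehydrogenase subunit typical of heart, which lay between 0.0989 and 0.138 FPKM in every library, next to the value of 0.101 FPKM that is typical of unexpressed genes in the table. FPKM counts fragments per kilobase of transcript and per unit of sequencing depth.

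Glycolysis turns glucose into pyruvate with a net gain of ATP, and lactate dehydrogenase regenerates the cofactor that lets it continue without oxygen. The oxidative branch of the pentose phosphate pathway makes NADPH, the electron donor of the phagocyte oxidase, and its other branch makes ribose for nucleotides or returns carbon to glycolysis. Neutrophils have few mitochondria, are known for a strong reliance on glycolysis, and hold glycogen as a reserve.

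RNA was sequenced in 12 libraries, 2 in each of 6 groups. The cells were c-Kit+ bone marrow progenitors of C57BL/6 background, carrying a retroviral fusion of the estrogen receptor and HoxB8 (ER-HoxB8) that keeps them immature while estradiol (E2) is present. Both genotypes carried this fusion and were kept in interleukin 3. Wild-type cells had no added HMGN1, and HMGN1-OE cells came from mice with a transgene of human HMGN1, a nucleosome-binding protein. The 6 groups were wild-type cells at 0 h (with E2), wild-type cells at 36 h and at 96 h after E2 withdrawal, and HMGN1-OE cells at the same 3 times. The promoter that drives the transgene and whether each genotype was 1 or several marrow donors were not given in the labels. The study's text calls the libraries of a group biological duplicates. The labels do not tie them to cultures or animals. As deposited, limma p-values use the variance trend over all genes, and not the spread of that gene between these samples. Relative to the library median they use both.

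Synthetic RNA standards were added to RNA of an equal number of cells per culture, and the values were scaled to these standards. The summed FPKM per library ranged from 228955 to 1442573. The 2 wild-type libraries at 0 h differed in their median by 3.91 against 4.78 on the log2(FPKM + 1) scale, and the 2 at 96 h by 2.99 against 2.02. Read depth is unknown, because the table holds no counts. The members took 0.830% to 1.195% of the summed FPKM of a library. The summed markers of the cells moved with time: the 8 myeloid progenitor markers summed to between 5676 and 16390 FPKM at 0 h and between 124 and 2336 FPKM at 96 h. As deposited, 8 were called lower in wild-type cultures, and 5 lower and 1 higher in HMGN1-OE cultures (limma, adjusted p under 0.05). The sum of the 11 neutrophil markers found of 12 listed went the other way. It was 1176 to 2956 FPKM at 0 h and between 67150 and 173000 FPKM at 96 h. Of these markers 9 were called higher and 2 lower in wild-type cultures, and 10 higher and 1 lower in HMGN1-OE cultures. Of all tested genes 4.31% were called higher and 77.2% lower in wild-type cultures, and 5.08% and 62.4% in HMGN1-OE cultures. The 8 eosinophil markers also summed to more at 96 h, from 8.39 to 29.0 FPKM at 0 h to 2322 and 1078 FPKM in the wild type and 261 and 556 FPKM in HMGN1-OE cultures. Single wild-type libraries stood apart in other markers. The macrophage and monocyte markers summed to 171 and 1018 FPKM at 0 h and to 2380 and 455 FPKM at 36 h. The mast cell and basophil markers summed to 3010 and 960 FPKM at 36 h. The part of these marker changes and differences in the results below was not tested. Values below are given for the 2 libraries of a group in the order of the table's columns.

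Between 0 and 96 h the genes for 1 glucose transporter, 1 lactate transporter and 1 regulator of phosphofructokinase rose, while most tested genes fell. As deposited, 24 of 36 members were lower at 96 h in wild-type cultures, against 77.2% of all tested genes, and 3 were higher, against 4.31% (limma with Benjamini-Hochberg adjustment, adjusted p under 0.05). In HMGN1-OE cultures 16 were lower, against 62.4% of all genes, and 3 were higher, against 5.08%. The 3 members that rose were the same in both genotypes: Slc2a3, Slc16a3 and Pfkfb4. Most tested genes were lower at this time, with a shift of the library medians of -1.85 (wild-type) and -1.31 (HMGN1-OE) on the log2 scale. Fewer cells of a type and less RNA per cell cannot be told apart in such bulk samples. The median change of the members was -1.54 in wild-type and -0.97 in HMGN1-OE cultures, beside -1.75 and -1.28 for all tested genes. Without the second wild-type library of 0 h, or without the second of 96 h, 16 members were lower. Without the first HMGN1-OE library of 0 h 6 were lower, without the first of 96 h 7, and without the second of 0 h 1 member was higher. A fit to the libraries of 0 and 96 h of the wild type alone called 12 members lower and 1, Pfkfb4, higher.

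Each change is therefore also given relative to the median of the library. On this scale 15 members were higher and 14 lower in wild-type cultures, where 36.5% and 33.8% of all tested genes were called. The HMGN1-OE cultures had 17 higher and 13 lower members, beside 30.9% and 32.5% of all genes. With quantile normalization the split was 19 higher and 11 lower in wild-type and 18 higher and 12 lower in HMGN1-OE cultures. With it the sign of 9 members lower as deposited in wild-type cultures turned (Aldoa, Gpi1, Gyg, Gys1, Hk2, Pkm, Rpe, Rpia and Slc2a1), and that of Gyg and Pgls in HMGN1-OE cultures. The calls differed by step within the list. Of 9 tested genes from aldolase to lactate dehydrogenase, 6 were lower in both genotypes and 1, Aldoc, was higher in wild-type cultures. Of 7 pentose phosphate genes, 4 were higher and 1 lower in wild-type cultures, and HMGN1-OE cultures had 6 higher and 0 lower. Across the 36 members, 14 were called higher in both genotypes, 13 lower in both, and none in opposite directions. The share of all tested genes called alike in both genotypes was not computed, so these counts have no background beside them. The deposited scale sets RNA against the added standards, and the relative scale sets a gene against the other genes of its library.

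**Figure D1:**
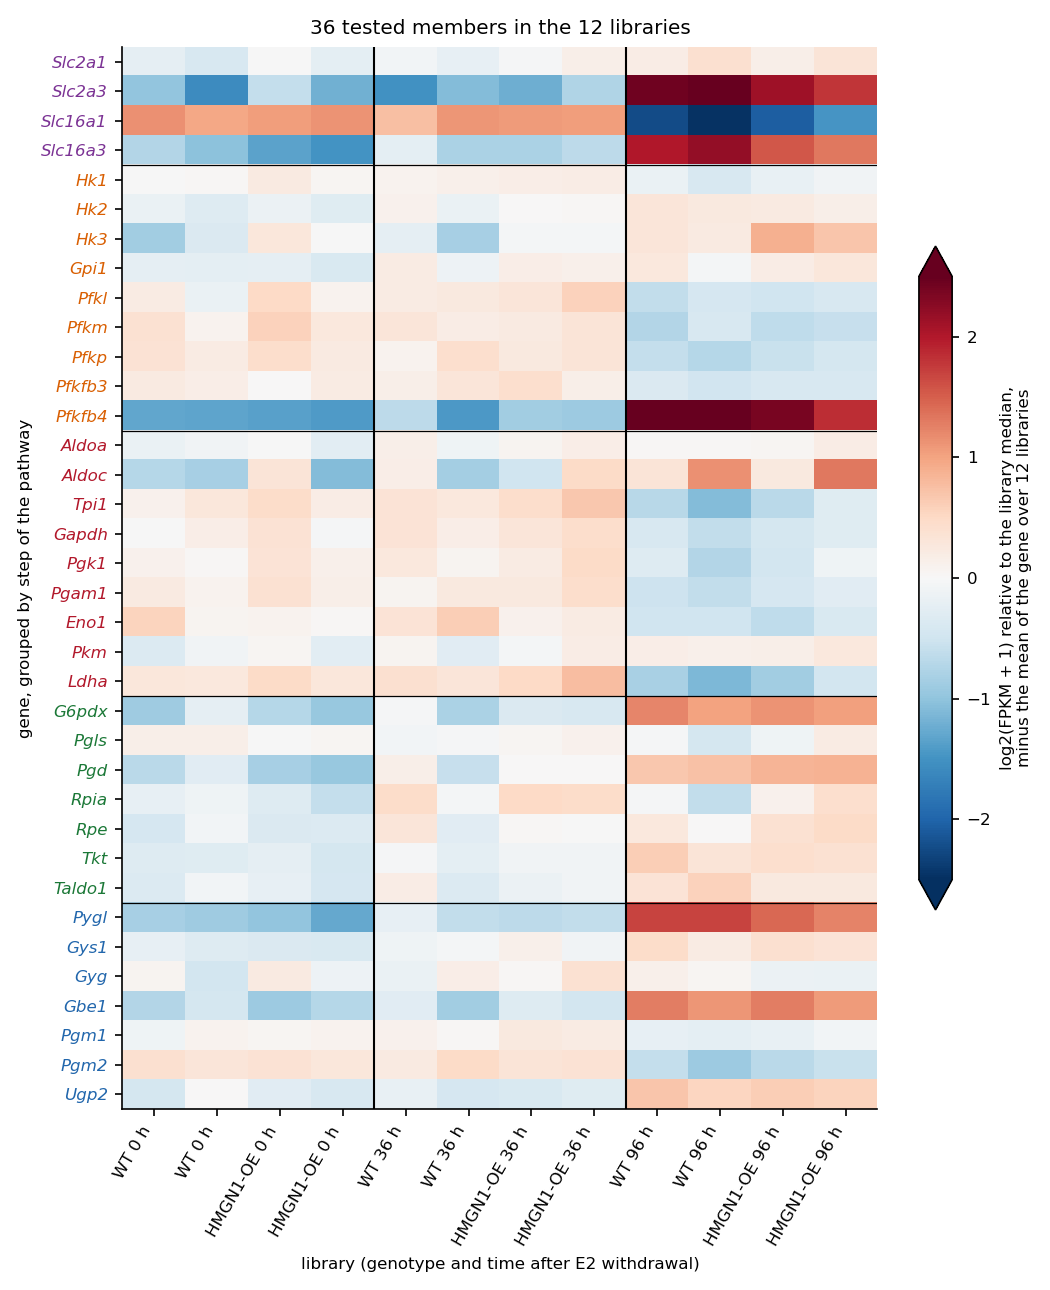
Heat map of the 36 tested members (rows, grouped by pathway step) in the 12 libraries (columns, by time and genotype). Color is log2(FPKM + 1) relative to the library median, minus the gene's mean over the 12 libraries. The 4 columns of 96 h stand apart from those of 0 and 36 h in both genotypes, with Slc2a3, Slc16a3, Pfkfb4, Pygl, Gbe1 and G6pdx high and Slc16a1 low.

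**Figure D2:**
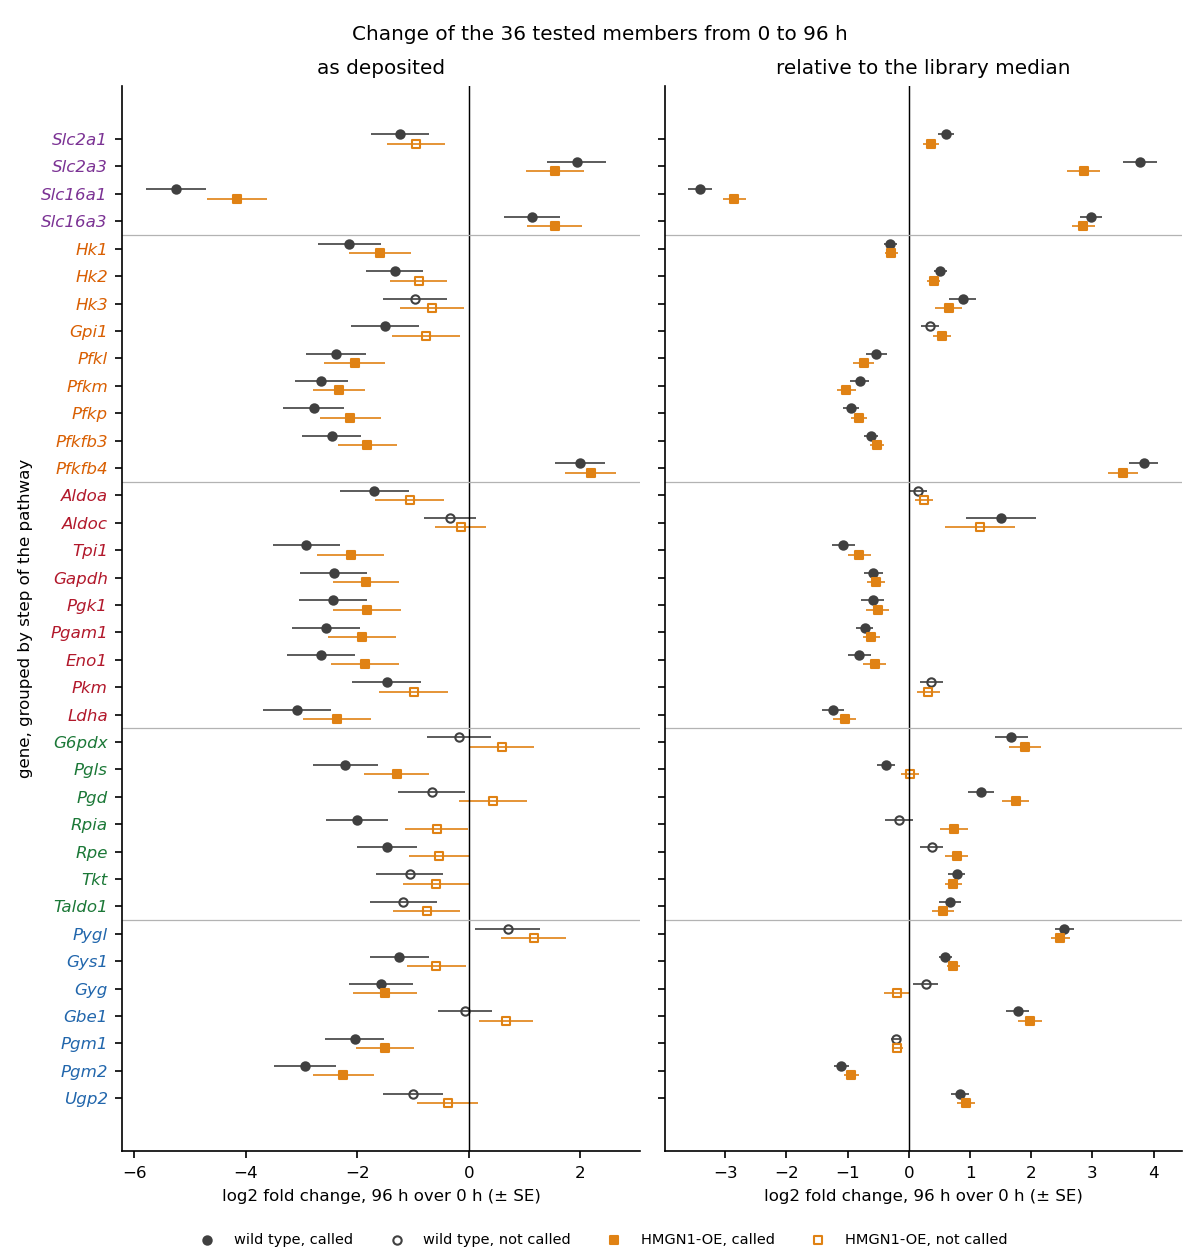
Log2 fold change from 0 to 96 h of each tested member, with its standard error, in wild-type (circles) and HMGN1-OE cultures (squares), as deposited (left) and relative to the library median (right). Filled symbols passed an adjusted p of 0.05 in limma. On the left 32 of 36 members lie below 0 in wild-type and 29 in HMGN1-OE cultures, and 3 lie above 0 with filled symbols in both genotypes.

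Promoters of 4 members are shown because these genes moved furthest or in opposite directions: Slc16a1 and Ldha, which fell, and Slc16a3 and Pfkfb4, which rose. The 250 bases before the first listed start site are given from RefSeq on GRCm38.p6, not the build of the expression table. Capitals mark ACGTG on either strand, the core of the hypoxia response element, and CACGTG, the E-box bound by Myc and its relatives, which holds that core on both strands.
Slc16a1 (chr3:104638414-104638663, + strand): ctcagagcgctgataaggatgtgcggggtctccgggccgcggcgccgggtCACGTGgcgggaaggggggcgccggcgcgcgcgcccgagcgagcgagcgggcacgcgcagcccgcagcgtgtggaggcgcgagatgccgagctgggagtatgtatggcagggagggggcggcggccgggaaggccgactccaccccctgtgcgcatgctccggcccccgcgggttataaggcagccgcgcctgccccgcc
Slc16a3 (chr11:120948817-120949066, + strand): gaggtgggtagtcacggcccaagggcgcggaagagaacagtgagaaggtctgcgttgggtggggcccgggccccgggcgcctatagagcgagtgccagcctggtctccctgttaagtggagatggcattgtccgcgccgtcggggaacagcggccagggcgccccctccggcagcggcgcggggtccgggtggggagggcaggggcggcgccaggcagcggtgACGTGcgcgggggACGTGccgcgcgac
Ldha (chr7:46845554-46845803, + strand): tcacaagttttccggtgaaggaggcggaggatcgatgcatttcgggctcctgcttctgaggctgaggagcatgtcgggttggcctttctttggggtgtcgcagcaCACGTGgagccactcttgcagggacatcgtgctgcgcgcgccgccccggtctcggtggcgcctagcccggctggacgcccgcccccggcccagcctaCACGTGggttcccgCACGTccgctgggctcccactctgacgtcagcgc
Pfkfb4 (chr9:108991652-108991901, + strand): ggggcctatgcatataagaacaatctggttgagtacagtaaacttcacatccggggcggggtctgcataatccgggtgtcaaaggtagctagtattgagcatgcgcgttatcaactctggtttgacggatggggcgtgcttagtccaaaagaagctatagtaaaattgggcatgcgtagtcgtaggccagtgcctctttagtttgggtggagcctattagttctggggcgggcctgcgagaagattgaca

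Matches to the core were counted on each strand, so 1 CACGTG gives 2 matches. The upstream window of Ldha held 5 matches, which include both strands of 2 CACGTG. That of Slc16a1 held 2, the 2 strands of 1 CACGTG. Slc16a3 held 2 at separate sites, and Pfkfb4 held none. Over windows from 250 bases before to 50 after the start, 24 of 50 member windows (48%) held ACGTG, beside 19.6% of 32851 promoters of the same length. Member windows were richer in G and C, with a median of 60.9% against 52.7%, and among all windows at or above 60.9% the share was 26.6%. CACGTG was in 5 windows (10%), beside 7.15% of all promoters and 11% of those at or above 60.9% G and C. By class, ACGTG was in a window of 3 of 3 transport genes, 12 of 19 glycolysis genes, 5 of 7 glycogen genes and 1 of 7 pentose phosphate genes with an entry. These counts are per gene over any of its windows, and no such share was computed over all genes. Windows of 1 gene can overlap and hold the same site, as for Aldoa. The median change relative to the library median at 96 h was 0.15 for the 21 tested members with the core and 0.36 for the 14 without it in wild-type cultures. In HMGN1-OE cultures these medians were -0.19 and 0.64. A match is a description of the letters and not a bound site.

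The transporters changed places. Slc2a1 (GLUT1) and Slc2a3 (GLUT3) are the glucose carriers of the list, and GLUT3 is the one with the higher affinity for glucose. Slc2a3 was at 13.3 and 16.2 FPKM in wild-type cultures at 0 h, 15.8 and 26.6 FPKM at 36 h, and 78.3 and 44.2 FPKM at 96 h. In HMGN1-OE cultures it was at 26.6 and 11.6, then 14.7 and 19.2, then 53.7 and 52.7 FPKM. All 4 libraries of 96 h lay above the other 8. Within a genotype, both 96 h libraries lay above both of 0 h for 4.84% of all tested genes in wild-type and 7.95% in HMGN1-OE cultures. The log2 change to 96 h as deposited was 1.93 ± 0.52 (SE, adjusted p = 0.000445) in wild-type and 1.54 ± 0.52 (adjusted p = 0.00690) in HMGN1-OE cultures. Slc2a1 went from 20.9 and 34.6 FPKM at 0 h through 40.8 and 44.8 FPKM at 36 h to 14.4 and 8.10 FPKM at 96 h in wild-type cultures. Its HMGN1-OE values were 36.6 and 21.2, 31.8 and 33.1, and 11.6 and 16.6 FPKM. Slc2a1 fell in wild-type cultures as deposited (log2 change -1.24 ± 0.52, adjusted p = 0.0226), and relative to the library median it was higher in both genotypes (0.61 ± 0.13 and 0.36 ± 0.13). Within the summed FPKM of both genes, Slc2a3 made up 31.9% to 42.1% at 0 h, 28.0% to 37.3% at 36 h, and 76.0% to 84.5% at 96 h.

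Slc16a1 (MCT1) and Slc16a3 (MCT4) move lactate and pyruvate with a proton, and MCT4 is the form known for lactate export from strongly glycolytic cells. Slc16a1 lay at 86.1 and 139 FPKM in wild-type cultures at 0 h, at 112 and 173 FPKM at 36 h, and at 3.39 and 0.899 FPKM at 96 h. The HMGN1-OE libraries held 119 and 87.2 FPKM, 106 and 96.8 FPKM, and 3.23 and 6.83 FPKM. This was the largest fall among the members on both scales, -5.26 ± 0.54 in wild-type (adjusted p = 1.49e-20) and -4.16 ± 0.54 in HMGN1-OE cultures (adjusted p = 3.94e-13) as deposited. Slc16a3 rose from 7.94 and 12.3 FPKM through 20.3 and 16.9 FPKM to 30.2 and 17.3 FPKM in wild-type cultures, and from 7.75 and 4.42 through 10.3 and 10.4 to 18.5 and 19.4 FPKM in HMGN1-OE cultures. The wild-type groups of 36 and 96 h overlapped, and the HMGN1-OE groups did not. Its change to 96 h was 1.13 ± 0.50 (adjusted p = 0.0288) and 1.54 ± 0.50 (adjusted p = 0.00447) as deposited. The share of Slc16a3 in the sum of both was 4.82% to 8.44% at 0 h, 8.84% to 15.3% at 36 h, and 74.0% to 95.1% at 96 h.

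**Figure D3:**
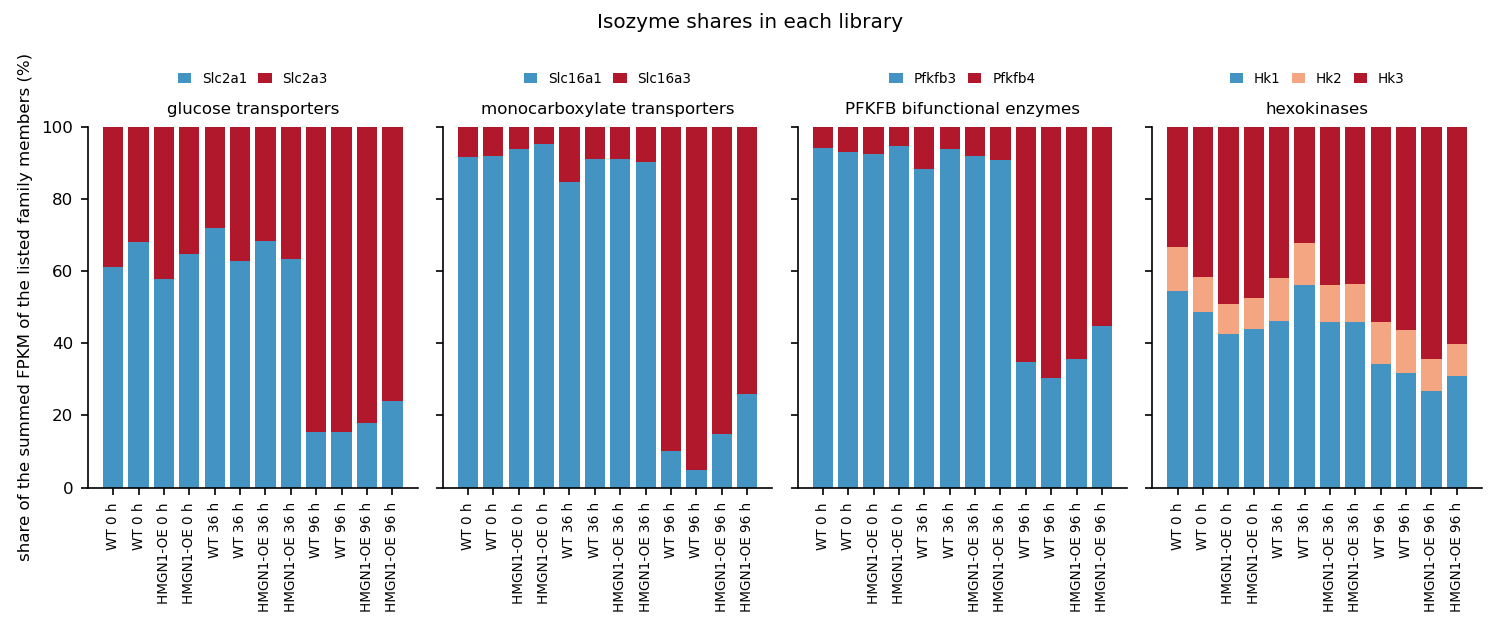
Stacked bars give the share of each listed gene in the summed FPKM of its family (vertical axis, percent) in the 12 libraries, by time and genotype, for the Slc2a, Slc16a, Pfkfb and Hk families. Slc2a3, Slc16a3 and Pfkfb4 are the smaller share in all 8 libraries of 0 and 36 h and the larger share in all 4 of 96 h, whereas the hexokinase shares moved less.

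Hexokinases trap glucose in the cell by phosphorylation. Hk1, the widely expressed form, was at 85.5 and 161 FPKM, then 156 and 196 FPKM, then 39.5 and 16.6 FPKM in wild-type cultures at 0, 36 and 96 h. In HMGN1-OE cultures it was at 149.9 and 91.9, 126 and 119, and 33.1 and 44.0 FPKM. Hk1 fell in both genotypes, also relative to the library median (-0.30 ± 0.10 and -0.28 ± 0.10), where the call was lost in 7 of 12 alternatives in the wild type and in 8 in HMGN1-OE cultures. Hk2, an inducible form, was at 19.2 and 32.1, 40.3 and 40.8, and 13.6 and 6.19 FPKM in the wild type and at 29.2 and 17.9, 28.7 and 27.1, and 10.8 and 12.8 FPKM in HMGN1-OE cultures. Hk3, the form enriched in myeloid cells, was at 52.0 and 137, 141 and 112, and 62.2 and 29.4 FPKM in wild-type cultures. Its HMGN1-OE libraries held 174 and 99.0, 121 and 112, and 79.4 and 86.1 FPKM. Hk3 was higher at 96 h relative to the library median in both genotypes, by 0.88 ± 0.22 (adjusted p = 0.00581) and 0.65 ± 0.22 (adjusted p = 0.0268), and as deposited it passed the test in neither. The relative call in HMGN1-OE cultures held in 7 of 12 alternatives, was lost in 4 and turned its sign in 1. Its share of the 3 genes was 33.2% to 49.3% at 0 h and 54.0% to 64.4% at 96 h.

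Phosphofructokinase commits the sugar to glycolysis, and the 3 subunit genes fell together. Pfkl (the liver form) stood at 47.4 and 67.4 FPKM at 0 h, 81.3 and 102 FPKM at 36 h and 13.5 and 7.42 FPKM at 96 h in wild-type cultures. The HMGN1-OE values were 86.7 and 44.8, 67.0 and 75.0, and 12.3 and 16.6 FPKM. Pfkp (the platelet form) had 62.5 and 104, 89.9 and 137, and 16.3 and 7.14 FPKM in wild-type cultures and 98.3 and 58.5, 76.3 and 74.7, and 14.2 and 19.3 FPKM in HMGN1-OE cultures. For Pfkl and Pfkp the 96 h libraries all lay below those of 0 h. Within a genotype this held for 80.9% of all tested genes in wild-type and 82.8% in HMGN1-OE cultures. Pfkm (the muscle form) was the least abundant, at 11.2 and 17.1, 18.7 and 21.2, and 1.95 and 0.915 FPKM in wild-type cultures and 19.6 and 10.6, 13.3 and 13.2, and 1.70 and 2.47 FPKM in HMGN1-OE cultures. The changes to 96 h as deposited were -2.38, -2.79 and -2.64 in wild-type cultures for Pfkl, Pfkp and Pfkm, and -2.05, -2.13 and -2.34 in HMGN1-OE cultures, and all 6 passed the test. All 6 also passed relative to the library median, between -0.53 and -1.02, where the call of Pfkl in wild-type cultures was lost in 4 of 12 alternatives.

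Pfkfb3 and Pfkfb4 encode bifunctional enzymes that make and break the sugar bisphosphate that activates phosphofructokinase, and the Pfkfb3 form leans to making it. Pfkfb3 was at 35.5 and 63.2 FPKM at 0 h, 57.9 and 78.2 FPKM at 36 h, and 11.8 and 5.05 FPKM at 96 h in wild-type cultures, and at 45.3 and 36.1, 53.4 and 40.9, and 9.56 and 11.97 FPKM in HMGN1-OE cultures. Pfkfb4 went the other way, from 2.20 and 4.78 FPKM through 7.58 and 5.04 FPKM to 22.3 and 11.6 FPKM in wild-type cultures. In HMGN1-OE cultures it went from 3.60 and 2.05 through 4.71 and 4.12 to 17.3 and 14.8 FPKM. The groups of 0 and 96 h did not overlap for either gene in either genotype. As deposited, both 96 h libraries lay below both of 0 h for 80.9% of all tested genes in wild-type and 82.8% in HMGN1-OE cultures. They lay above for 4.84% and 7.95%. Pfkfb3 fell by 2.46 ± 0.53 and 1.82 ± 0.53 on the log2 scale as deposited, and Pfkfb4 rose by 1.99 ± 0.46 (adjusted p = 3.33e-05) and 2.18 ± 0.46 (adjusted p = 1.22e-05). Pfkfb4 had the largest rise of any member relative to the library median, 3.84 ± 0.24 in wild-type and 3.496 ± 0.24 in HMGN1-OE cultures. Gpi1, the isomerase between hexokinase and phosphofructokinase, lay between 379 and 949.9 FPKM at 0 and 36 h and between 124 and 322 FPKM at 96 h.

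The lower part of glycolysis held the most abundant members. Ldha, the lactate dehydrogenase subunit that favors lactate production, was at 628 and 1128 FPKM in wild-type cultures at 0 h, 1167 and 1313 FPKM at 36 h, and 154 and 62.9 FPKM at 96 h. Its HMGN1-OE libraries held 1070 and 647, 952 and 1064, and 125 and 208 FPKM. Ldha fell by 3.08 ± 0.61 (adjusted p = 1.66e-06) and 2.36 ± 0.61 (adjusted p = 0.00041) as deposited, and by 1.24 ± 0.18 and 1.05 ± 0.18 relative to the library median. With Ldhb at background, Ldha was the lactate dehydrogenase gene of the list that was measured. Tpi1, triose phosphate isomerase, was at 330.4 and 684, 670 and 770, and 99.9 and 38.5 FPKM in the wild type and at 628 and 360.2, 546 and 595, and 85.8 and 138 FPKM in HMGN1-OE cultures. Eno1, enolase, was at 971 and 1266, 1425 and 2106, and 244 and 126 FPKM in the wild type and at 1034 and 696, 936 and 920.3, and 191 and 281 FPKM in HMGN1-OE cultures. Both fell on both scales in both genotypes, and so did Gapdh, Pgk1 and Pgam1, the 3 enzymes between them, with changes relative to the library median of -0.51 to -0.72. On that scale the call of Pgk1 was lost in 4 of 12 alternatives in wild-type and in 5 in HMGN1-OE cultures, and that of Eno1 in 4 in HMGN1-OE cultures.

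Aldoa and Pkm did not pass the test relative to the library median in either genotype. Aldoa, the main aldolase here, was at 759 and 1466, 1607 and 1630, and 453 and 232 FPKM in the wild type, and at 1243 and 730.3, 1163 and 1150, and 390.2 and 534 FPKM in HMGN1-OE cultures. Aldoc, the brain form, was at 4.18 and 7.80, 15.4 and 8.76, and 4.57 and 4.10 FPKM in the wild type and at 14.7 and 3.14, 6.96 and 13.4, and 3.51 and 10.7 FPKM in HMGN1-OE cultures. Its groups of 0 and 96 h overlapped in both genotypes, and the wild-type libraries of 36 h lay above the other 4 of that genotype. The relative change of Aldoc was 1.51 ± 0.58 (adjusted p = 0.0420) in the wild type and 1.16 ± 0.58, which did not pass, in HMGN1-OE cultures. The wild-type call held in 3 of 12 alternatives, was lost in 8 and turned its sign in 1. Pkm, which is not split here into its M1 and M2 isoforms, was between 607 and 1390 FPKM at 0 and 36 h and between 227 and 512 FPKM at 96 h. As deposited Aldoa and Pkm fell in wild-type cultures (-1.70 ± 0.62 and -1.48 ± 0.62). The call of Aldoa held in 8 of 12 alternatives, was lost in 3 and turned its sign in 1. That of Pkm held in 7, was lost in 4 and turned its sign in 1. By name, GENCODE vM21 lists 6 copies or pseudogenes of Tpi1, 4 of Aldoa, 3 of Pgk1, 2 each of Gapdh, Pgam1 and Ldha, and 1 each of Eno1 and G6pdx. Their sequences were not compared here, and how reads were split among such copies is uncertain.

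The dehydrogenases of the pentose phosphate pathway were higher relative to the library median and did not pass as deposited. G6pdx, the dehydrogenase that opens the pathway and makes NADPH, was at 69.3 and 200.1 FPKM in wild-type cultures at 0 h, 216.1 and 153 FPKM at 36 h, and 158 and 69.3 FPKM at 96 h. In HMGN1-OE cultures it was at 116 and 68.2, 130 and 117, and 125 and 144 FPKM. Pgd, the later NADPH-making dehydrogenase, was at 239.6 and 577, 726 and 536, and 322 and 169.9 FPKM in the wild type and at 319 and 205, 504 and 468, and 308 and 388 FPKM in HMGN1-OE cultures. Neither passed the test as deposited (log2 change of G6pdx -0.17 ± 0.58 and 0.59 ± 0.58, of Pgd -0.67 ± 0.60 and 0.43 ± 0.60). Relative to the library median both were higher in both genotypes, G6pdx by 1.68 ± 0.26 and 1.90 ± 0.26 and Pgd by 1.18 ± 0.22 and 1.74 ± 0.22. The lactonase between them, Pgls, fell as deposited in both genotypes, from 182 to 344 FPKM at 0 h to between 33.0 and 108 FPKM at 96 h. In HMGN1-OE cultures this call held in 5 of 12 alternatives and its sign turned in 1. Relative to the library median Pgls was lower in the wild type (-0.37 ± 0.15, adjusted p = 0.0498), a call that held in 2 of 12 alternatives, and did not pass in HMGN1-OE cultures (0.02 ± 0.15).

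The sugar-exchanging enzymes lay in between. Tkt, transketolase, was at 335 and 617, 701 and 734, and 335 and 140.5 FPKM in the wild type and at 527 and 318, 516 and 474, and 248.7 and 299 FPKM in HMGN1-OE cultures. Taldo1, transaldolase, was at 302 and 676, 749 and 636, and 258 and 155 FPKM in the wild type and at 498 and 297, 454 and 441, and 204 and 254 FPKM in HMGN1-OE cultures. Both passed the test only relative to the library median, where Tkt was higher by 0.78 ± 0.14 and 0.73 ± 0.14 and Taldo1 by 0.67 ± 0.19 and 0.56 ± 0.19. Rpia and Rpe, which interconvert the pentoses, were higher on this scale in HMGN1-OE cultures (0.74 ± 0.22 and 0.78 ± 0.19) and did not pass in wild-type cultures (-0.16 ± 0.22 and 0.38 ± 0.19). As deposited both fell in wild-type cultures (-2.01 ± 0.56 and -1.47 ± 0.54) and did not pass in HMGN1-OE cultures (-0.58 ± 0.56 and -0.53 ± 0.54). The wild-type call of Rpia held in 10 of 12 alternatives, was lost in 1 and turned its sign in 1. That of Rpe held in 7, was lost in 4 and turned its sign in 1. The difference between the genotypes in these changes did not pass the test for any member (interaction for Rpia 0.90 ± 0.32, unadjusted p = 0.0196, adjusted p = 0.462).

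**Figure D4:**
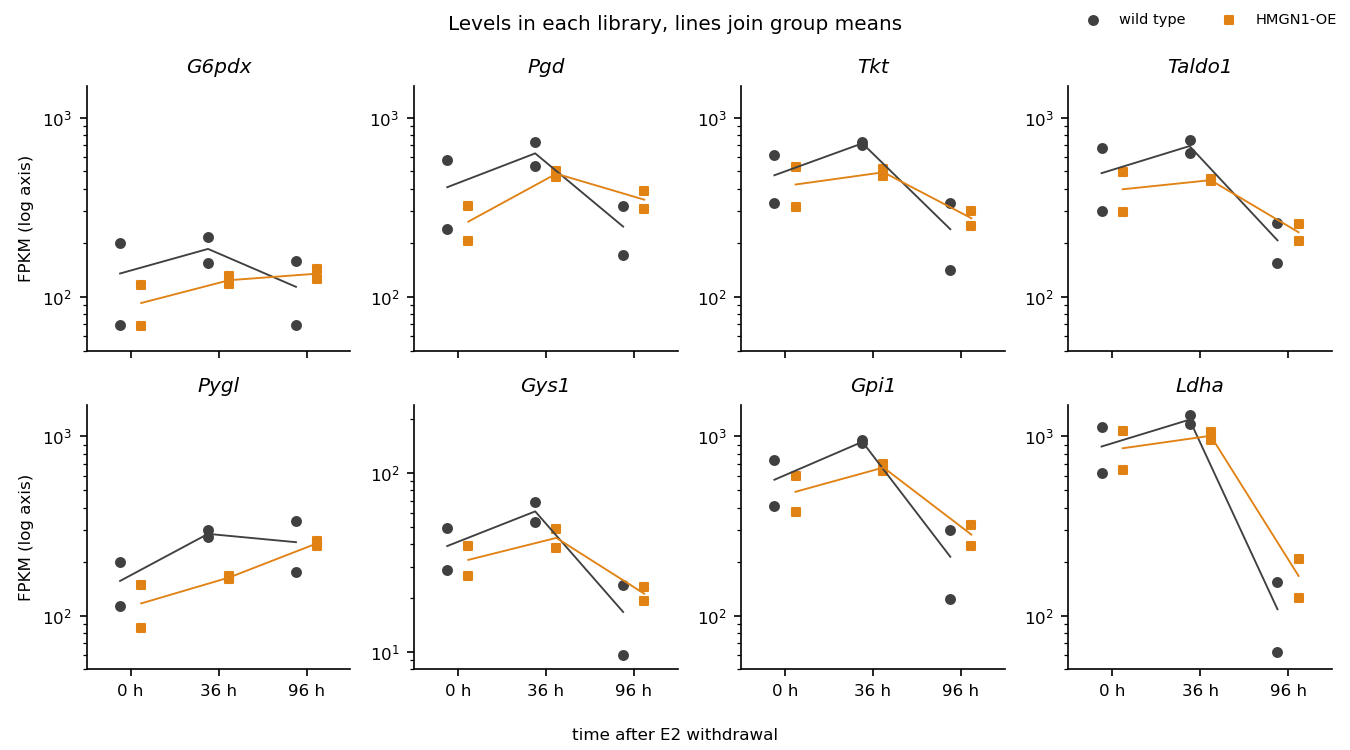
FPKM (log axis) of G6pdx, Pgd, Tkt, Taldo1, Pygl, Gys1, Gpi1 and Ldha at 0, 36 and 96 h in wild-type (circles) and HMGN1-OE libraries (squares), each point 1 library, with lines through the means of 2. G6pdx and Pygl values of 96 h overlap or exceed their 0 h values, while all 4 Ldha values of 96 h, up to 208 FPKM, lie below those of 0 h. Both 96 h libraries lay below both of 0 h for 80.9% of all tested genes in wild-type and 82.8% in HMGN1-OE cultures. Gys1 has its own vertical range.

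Among the glycogen genes, those that release or branch glycogen gained most against the rest of the library. Pygl, the glycogen phosphorylase that frees glucose phosphate, was at 113 and 199 FPKM in wild-type cultures at 0 h, 298 and 273 FPKM at 36 h, and 339 and 174 FPKM at 96 h. The HMGN1-OE libraries had 149 and 84.8, 166 and 159.6, and 244 and 261 FPKM, with no overlap between 0 and 96 h. In these cultures both 96 h libraries lay above both of 0 h for 7.95% of all tested genes. Pygl was higher relative to the library median by 2.54 ± 0.15 (adjusted p = 4.42e-06) and 2.47 ± 0.15 (adjusted p = 9.67e-06), and as deposited its changes of 0.69 ± 0.59 and 1.16 ± 0.59 did not pass. Gys1, glycogen synthase, was at 28.8 and 49.4, 53.5 and 68.5, and 23.8 and 9.68 FPKM in the wild type and at 39.0 and 26.5, 48.5 and 38.3, and 19.4 and 23.0 FPKM in HMGN1-OE cultures. It fell in wild-type cultures as deposited, a call that held in 7 of 12 alternatives, was lost in 4 and turned its sign in 1. Relative to the library median Gys1 was higher in both genotypes (0.60 ± 0.11 and 0.73 ± 0.11). Gbe1, the branching enzyme, was at 6.95 and 16.8, 17.5 and 13.9, and 15.8 and 6.63 FPKM in the wild type and at 9.39 and 7.33, 12.9 and 10.6, and 13.2 and 14.3 FPKM in HMGN1-OE cultures. Its relative rise was 1.78 ± 0.19 and 1.98 ± 0.19.

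Ugp2, which makes the activated glucose for glycogen synthesis, was also higher relative to the library median (0.84 ± 0.15 and 0.93 ± 0.15). Gyg, the glycogenin that primes the chain, fell as deposited in both genotypes and did not pass relative to the library median (0.28 ± 0.20 and -0.20 ± 0.20). The phosphoglucomutases link glycogen to glycolysis. The gene listed as Pgm2 was at 79.6 and 137, 122 and 176, and 20.4 and 7.74 FPKM in the wild type and at 116 and 75.9, 99.2 and 94.1, and 16.2 and 22.0 FPKM in HMGN1-OE cultures. The gene listed as Pgm1 was at 24.6 and 51.9, 49.3 and 57.3, and 11.6 and 5.27 FPKM and at 40.6 and 28.9, 41.2 and 37.4, and 9.77 and 13.4 FPKM. Both fell as deposited, and Pgm2 also relative to the library median (-1.10 ± 0.13 and -0.94 ± 0.13). These mouse symbols have been exchanged between annotation releases, so which enzyme each row holds is uncertain.

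Ratios of 2 genes in the same library do not depend on a factor common to that library. The authors' loess scaling to the standards may differ with expression level, and such a difference would not cancel. A two-sided exact permutation test compared 12 pairs between the 4 libraries of 0 h and the 4 of 96 h. Of these, 9 passed, each at the smallest p the test can give (exact permutation p = 0.0286, 70 regroupings, Benjamini-Hochberg adjusted p = 0.0381 over the 12). The ratio of Slc16a3 to Slc16a1 changed most, from 0.0507 to 0.0922 at 0 h to between 2.84 and 19.3 at 96 h, a 95.8-fold rise of the geometric mean. Pfkfb4 to Pfkfb3 rose 25.0-fold, Slc2a3 to Slc2a1 7.72-fold, Pygl to Gys1 3.70-fold, and G6pdx to Gpi1, the entry to the pentose phosphate pathway against the next step of glycolysis, 2.55-fold. Hk1 to Hk2 changed to 0.609, Pgm2 to Pgm1 to 0.575 and Pfkm to Pfkp to 0.720 of its value at 0 h. The last of these rests on low values of Pfkm and was lost with a pseudocount of 1 FPKM. The passing ratio of Ldhb to Ldha holds only the fall of Ldha, since Ldhb was at background. The ratios of Hk3 to Hk2, Pfkl to Pfkp and Aldoc to Aldoa did not pass (adjusted p = 0.286, 0.125 and 0.103). The 70 regroupings exchange libraries between the genotypes. Regrouping within each genotype, chosen after seeing the data, leaves 36 regroupings and a smallest exact p of 0.0556, so that 0 of the 12 ratios could pass, and 10 were at that smallest p.

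At 36 h no member passed the test against 0 h in either genotype, where 0.617% of all genes were called in wild-type and 1.80% in HMGN1-OE cultures. In limma at an unadjusted p under 0.05, 1 member passed in wild-type cultures, Aldoc, where 3.28% of all genes did, and 0 in HMGN1-OE cultures, where 5.02% did, and a linear model without moderation called 0 in both. The changes ran from 0.28 to 0.92 for wild-type and from -0.17 to 0.97 for HMGN1-OE cultures (log2), with standard errors of 0.46 to 0.62. Relative to the library median 6 of 36 members had an unadjusted p under 0.05 in HMGN1-OE cultures, where 14.8% of all genes did, and 1 member, Pygl, in wild-type cultures, where 3.06% did. The 6 included Rpia (0.95 ± 0.22), Pgd (0.89 ± 0.22), Slc16a3 (0.69 ± 0.18) and Pygl (0.50 ± 0.15), with adjusted p-values from 0.113. Of the shares plotted for the families, that of Slc16a3 lay higher at 36 h than at 0 h in every library, those of Slc2a3 and Pfkfb4 overlapped, and all 3 were below their 96 h range.

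HMGN1-OE and wild-type cultures were compared at each time to ask whether the transgene changes these genes. At 0 h 0 of 36 members were called, against 1.36% of all genes, at 36 h 0 against 1.26%, and at 96 h 0 against 0.669%. In limma as deposited 0 members had an unadjusted p under 0.05 at any time, beside 3.97%, 5.15% and 2.73% of all genes at 0, 36 and 96 h. A linear model without moderation called 0, and the interaction of genotype with time called 0 members, against 0.677% of all genes. The differences ran from -0.66 to 0.63 at 0 h, from -0.90 to -0.11 at 36 h and from -0.26 to 0.996 at 96 h, with standard errors of 0.46 to 0.62. At 36 h the 2 HMGN1-OE libraries were each lower than the 2 wild-type ones for 32 of 36 members, as for 84.4% of all tested genes. The median difference of the members there was -0.46, beside -0.54 for all genes.

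**Figure D5:**
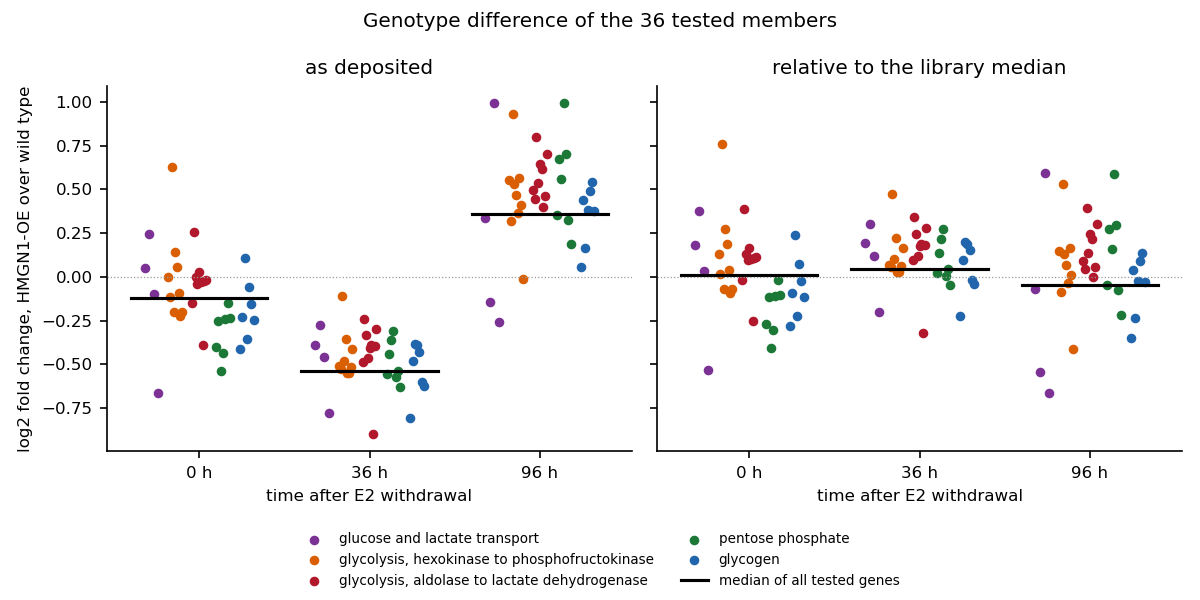
Log2 fold change of HMGN1-OE over wild-type cultures (vertical axis) for the 36 tested members at 0, 36 and 96 h, colored by pathway step, as deposited (left) and relative to the library median (right). Bars mark the median of all tested genes. As deposited, most members lie near that median at each time, below 0 at 36 h and above 0 at 96 h, and 0 of 36 passed the test.

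With the library median removed, 0 of 36 members were called between the genotypes at 0, 36 or 96 h, beside 0.104%, 0.0521% and 0.0608% of all genes. At an unadjusted p under 0.05 there were 2 members at 0 h and 5 at 96 h, where 5.64% and 17.9% of all genes passed, so these counts are near or below the background. They were Hk3 (0.76 ± 0.22) and Slc16a3 (-0.53 ± 0.18) at 0 h, and Hk3 (0.53 ± 0.22), Slc16a3 (-0.66 ± 0.18), Slc16a1 (0.59 ± 0.19), Rpia (0.59 ± 0.22) and Pygl (-0.35 ± 0.15) at 96 h, with adjusted p-values of 0.218 or more. Among the ratios, 3 of 12 had a small unadjusted p over the 3 times (two-sided exact permutation test within times). Hk3 to Hk2 was higher in HMGN1-OE cultures by 0.59 on the log2 scale (exact p = 0.00926), Slc16a3 to Slc16a1 was lower by 0.88 and Pygl to Gys1 lower by 0.31 (both exact p = 0.0278), and all 3 had an adjusted p = 0.111. Without 1 wild-type library of 36 h these 3 and Hk1 to Hk2 passed. Markers of other cells differed with genotype too at 96 h: the eosinophil sums above were higher in both wild-type libraries, and the progenitor markers summed to 693 and 124 against 810.2 and 2336 FPKM. The summed neutrophil markers were at 96530 and 67150 against 121100 and 173000 FPKM, but 8 of the 11 had a change below 0 as deposited (median -0.22, 1 called higher and 2 lower) and 9 relative to the library median (median -0.62). The macrophage and monocyte markers summed to 756 and 418 against 779 and 1355 FPKM, with 3 of 6 tested below 0 as deposited (median -0.11) and 5 relative to the library median (median -0.51). As deposited, 3 of 8 progenitor markers were called higher and 3 of 6 eosinophil markers lower at 96 h, beside 0.321% and 0.347% of all genes. At 0 h 2 of 8 progenitor and 1 of 6 macrophage and monocyte markers were called lower, beside 0.564% of all genes. There 1 of 7 mast cell and basophil and 1 of 3 erythroid markers were called higher, beside 0.799%. The part of these markers in the differences was not tested.

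Other genes of glucose metabolism were read from lists of the same pathways. In the time comparison to 96 h as deposited, 77.2% of all tested genes were lower and 4.31% higher in the wild type, and 62.4% and 5.08% in HMGN1-OE cultures. On that scale 11 of 13 regulators of glycolysis were lower in the wild type and 8 in HMGN1-OE cultures, and of 12 genes for pyruvate entry into mitochondria 10 and 8, with 0 higher in either list. Of 10 other glycolysis isozymes 6 and 3 were lower and 0 higher. Of 14 other glycogen genes 10 and 5 were lower and 1 was higher in each genotype, and of 6 other pentose phosphate genes 6 and 4 were lower and 0 higher. All 4 genes of gluconeogenesis and glucose-6-phosphatase were lower in both genotypes. Relative to the library median, 36.5% of all genes were higher and 33.8% lower in the wild type and 30.9% and 32.5% in HMGN1-OE cultures. On that scale the same lists split in both directions, except the gluconeogenesis and glucose-6-phosphatase list in HMGN1-OE cultures. The regulators had 5 higher and 5 lower in the wild type and 4 and 6 in HMGN1-OE cultures, and the pyruvate entry genes 3 and 6, and 3 and 7. The other glycolysis isozymes had 7 higher and 1 lower in the wild type and 5 and 1 in HMGN1-OE cultures. The other glycogen genes had 6 and 3, and 7 and 3, and the other pentose phosphate genes 1 and 4, and 2 and 3. The gluconeogenesis and glucose-6-phosphatase genes had 1 higher and 3 lower in the wild type and 0 and 1 in HMGN1-OE cultures. Myc, a transcription factor that drives glycolytic genes, fell from 149.7 and 241 FPKM to 15.2 and 3.896 FPKM in wild-type cultures and from 226 and 122 to 11.6 and 19.7 FPKM in HMGN1-OE cultures. G6pc3, the glucose-6-phosphatase of neutrophils, fell from 92.4 and 140 FPKM to 8.91 and 3.39 FPKM in wild-type cultures and from 145 and 85.3 to 8.41 and 13.9 FPKM in HMGN1-OE cultures. Relative to the library median both were also lower, Myc by log2 changes of -2.58 and -2.06 and G6pc3 by -2.27 and -1.93.

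The other direction was taken by Ppp1r3d, which targets a phosphatase to glycogen and was the single other gene higher as deposited in both genotypes, from 0.676 to 1.13 FPKM at 0 h to between 3.03 and 5.77 FPKM at 96 h. Adpgk, a glucokinase that uses ADP, was at 28.2 and 49.9 FPKM at 0 h and 111 and 52.6 FPKM at 96 h in wild-type cultures, and at 39.6 and 28.8 and 57.1 and 63.4 FPKM in HMGN1-OE cultures. Adpgk was higher at 96 h relative to the library median in both genotypes (2.86 and 2.13). It was the single gene of these lists called between genotypes, lower in HMGN1-OE cultures at 96 h by 0.75 ± 0.09 on that scale (limma, adjusted p = 0.0353). As deposited its difference of -0.34 ± 0.55 did not pass, and the FPKM of the genotypes overlapped. The alternatives were run for members only, so this call was not recomputed under them. Txnip, an inhibitor of glucose uptake, was higher on that scale by 2.20 in wild-type and 2.08 in HMGN1-OE cultures. Pgam2, the muscle phosphoglycerate mutase, was higher by 2.33 in wild-type cultures on this scale but lay between 1.14 and 3.07 FPKM in the wild-type libraries.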

How the data were processed

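RNA-seq of 12 libraries was used. The deposited values are FPKM, 1 per gene and library, which, by the methods stated for the RNA-seq, the authors normalized by loess to 92 ERCC synthetic RNAs. The submitters' processing notes name HISAT, Cufflinks 2.0.0 and mm9, whereas the paper's methods name Bowtie and RPKM, and which applies to the table is not settled. Every column of values in the table was used. Groups came from the genotype and time in the column names. Depth is unknown, so no counting error is given.

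log2(FPKM + 1) was tested with limma 3.58.1 (lmFit, eBayes with trend) in R 4.3.3 with a mean for each of 6 groups, on genes reaching 1 FPKM in 2 or more libraries, with Benjamini-Hochberg adjustment over all 11516 tested genes. As deposited, the prior degrees of freedom were infinite, so a standard error reflects the variance trend at that expression level, not the spread of that gene. On the scale relative to the library median they were 2.87. A fold change on the log2(FPKM + 1) scale understates that of low genes. Ratios used log2 with a pseudocount of 0.1 FPKM. With 2 libraries against 2, an exact permutation test of 1 gene cannot go below p = 0.333. The limma fit was tested on simulated data with 200 changed genes. That simulation used independent noise and, on the deposited scale, no shift common to a library. It does not show how the fit behaves with the library shifts of these data. Python 3.11.15, numpy 2.4.6, pandas 2.3.3 and matplotlib 3.10.9 were used.

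Members and lists were chosen with earlier results of these data known. Values in every library are given for each member of an isozyme family, for G6pdx, Pgd, Tkt, Taldo1, Pygl and Gys1, and for the 6 members that rose most and the 6 that fell most against the library median. Other pathway genes are those called between genotypes and the 6 with the largest relative change at 96 h, of which 1 is not reported here. Alternatives were other pseudocounts and filters, quantile normalization, library centring, limma without the trend, fits to fewer libraries, and each library left out. limma's robust option, a linear model without moderation and regroupings within genotype were chosen after seeing the data. Promoters and names of copies came from RefSeq (GRCm38.p6) and GENCODE vM21. Protein sequences were not used here.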

Additional observations from a re-analysis of the deposited data

How the results depend on the processing

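Of the recomputed counts of called members or ratios, 191 stayed within 1.5 times and 14 did not. No member was called between the genotypes, from 0 to 36 h or in the interaction under any alternative run, leaving out libraries included (0 to 0). From 0 to 96 h as deposited, quantile normalization gave 19 higher and 11 lower in wild-type and 18 higher in HMGN1-OE cells, and only the libraries of the groups compared gave 1 higher and 12 lower in wild-type cells. Leaving out 1 library gave 2 to 3 higher and 16 to 28 lower in wild-type and 1 to 3 higher and 6 to 15 lower in HMGN1-OE cells. Relative to the library median it gave 13 to 15 higher and 10 to 13 lower in wild-type and 11 to 18 higher and 9 to 12 lower in HMGN1-OE cells. Without the filter on low values all 23309 genes enter, of which 11516 pass it. The median of a library is then set by low genes near the limit of the filter. On this scale that gave 4 higher and 23 lower in wild-type and 4 higher in HMGN1-OE cells. With a library left out, the ratios passed in 9 to 11 pairs over time and 0 to 4 between genotypes, 4 without 1 wild-type library of 36 h. Regrouping within genotype, chosen after seeing the data, gave 0 over time, and with a smallest p of 0.0556 it could call none, which says nothing about stability.

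Direction turned for 30 values of single members, all under these 2 changes of scale. Quantile normalization against the deposited scale gave log2 changes of Aldoa 0.35, Gpi1 0.49, Gyg 0.54, Gys1 0.73, Hk2 0.60, Pkm 0.59, Rpe 0.53, Rpia 0.0258, Slc2a1 0.72 in wild-type and Gyg 0.0056, Pgls 0.24 in HMGN1-OE cells. Without the filter, the changes relative to the library median became Aldoc -0.11, Gys1 -1.02, Hk2 -1.10, Hk3 -0.74, Pgd -0.44, Slc2a1 -1.01, Taldo1 -0.94, Tkt -0.83, Ugp2 -0.78 in wild-type and Gpi1 -0.62, Gys1 -0.44, Hk2 -0.76, Hk3 -0.52, Rpe -0.39, Rpia -0.43, Slc2a1 -0.81, Taldo1 -0.61, Tkt -0.44, Ugp2 -0.24 in HMGN1-OE cells. A further 155 single values kept their direction and missed the threshold, and 1201 kept both. Slc16a1, Ldha and Pfkfb4 stayed called in all 12 alternatives on each scale in both genotypes. Slc2a3 and Slc16a3 did so relative to the library median and as deposited lost the call in 1 to 3 alternatives per genotype. No paired analysis was possible because the columns of the table carry no replicate number of the sample names. Depth is unknown, and 2 libraries a group limit the precision.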
